A study of Mus musculus with 10 samples.

Results

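The T cell receptor alpha (TRA) chain is built from a variable (V) and a joining (J) gene segment. Its segment usage was read from every productive TRA contig of 5 mouse livers carrying metastases of CRC (colorectal cancer) origin, leaving out TRAV11 or TRAV11D joined to TRAJ18, the chain of invariant natural killer T cells. The contigs used 87 V genes of 20 families and 43 J genes, together 130 segments, among 32285 genes in the gene expression tables of the same livers. Livers 11 and 25 came from mice given a Control LV, livers 18 and 23 from mice given an IFNa LV (interferon alpha), and liver 22 from a mouse given IFNa combined with a-CTLA-4, here called the combination. All 5 livers carried metastases, and viable 7AAD-negative cells were sorted from digested tissue with no antibody stain. The combination had 1 liver, so a difference between it and another group has no replicate of its own. Strain, age, dose, and the promoter or cell type behind the LV are not given in the sources used here.

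Developing thymocytes join a V to a J segment in the TRA locus and can repeat the joining on the same chromosome, which moves outward to V segments farther upstream and J segments farther downstream. The V segment encodes the complementarity-determining regions 1 and 2 (CDR1 and CDR2), which lie mostly over the presenting MHC molecule, and the V–J junction encodes CDR3, which lies mostly over the peptide. T cells with the coreceptor CD8 recognise MHC class I, and T cells with CD4 recognise MHC class II. In the GENCODE M21 annotation of mm10, the 87 V genes lie on the plus strand of chromosome 14 between 52427928 (TRAV1) and 53876752 (TRAV21-DV12), over 1.45 Mb. The 43 J genes follow after a gap of 281 kb, from TRAJ58 at 54157280 to TRAJ2 at 54217901, over 60.6 kb. J genes are numbered from the far end, so a high TRAJ number is near to the V genes.

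A rearrangement below is 1 distinct combination of V gene, J gene and CDR3 nucleotide sequence in 1 liver, and a chain is 1 contig in 1 barcode. The sequences that the results turn on follow, 5′ to 3′, as read from the deposited contigs. The first set holds chains that recurred between livers or took the largest shares, with capitals for bases that match the end of neither the V nor the J gene in the reference.
TRAV7-4 TRAJ22 of IFNa 18, IFNa 23 and the combination: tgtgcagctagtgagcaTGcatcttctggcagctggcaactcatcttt
TRAV7-4 TRAJ22 of IFNa 23 only: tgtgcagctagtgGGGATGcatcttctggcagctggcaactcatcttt
TRAV14D-1 TRAJ22 of IFNa 23: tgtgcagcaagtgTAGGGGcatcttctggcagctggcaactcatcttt
TRAV14-1 TRAJ22 of the combination: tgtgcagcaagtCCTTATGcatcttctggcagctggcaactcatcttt
TRAV12-2 TRAJ22 of IFNa 18: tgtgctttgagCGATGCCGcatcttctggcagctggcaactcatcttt
TRAV7N-4 TRAJ22 of Control 11: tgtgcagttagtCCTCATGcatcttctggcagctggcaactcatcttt
TRAV6N-6 TRAJ22 of the combination: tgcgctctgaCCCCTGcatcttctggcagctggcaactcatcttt
TRAV9-4 TRAJ31 of IFNa 18, IFNa 23 and the combination: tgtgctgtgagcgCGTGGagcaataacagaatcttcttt
TRAV1 TRAJ33 of Control 11, IFNa 23 and the combination: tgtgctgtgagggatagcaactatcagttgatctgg

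Another set shows the most abundant rearrangements of TRAV4D-4 with TRAJ21, the V–J pair with the most rearrangements, with capitals as before.
TRAV4D-4 TRAJ21, 36 barcodes: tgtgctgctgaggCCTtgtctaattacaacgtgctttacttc
TRAV4D-4 TRAJ21, 16 barcodes: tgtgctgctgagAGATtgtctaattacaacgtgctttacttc
TRAV4D-4 TRAJ21, 16 other barcodes: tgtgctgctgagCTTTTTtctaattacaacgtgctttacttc

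The TRAV9 genes are shown by their CDR1 and then CDR2, because members of this family moved in opposite directions between T cell classes, with capitals for bases that differ from TRAV9D-3.
TRAV9D-3 CDR1: tactttgggacaccttat
TRAV9-2 CDR1: tactCtgggacaccttat
TRAV9-4 CDR1: tactCtgggacGccttat
TRAV9-1 and TRAV9D-1 CDR1: taTGGtggATcCATttaC
TRAV9D-3 CDR2: tactatccaggagacccagtggtt
TRAV9-2 CDR2: tactatTcaggagacccagtggtt
TRAV9-4 CDR2: tactatTcCggagacccagtggtt
TRAV9-1 and TRAV9D-1 CDR2: tactatTcGggaAacccagtggtt

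The 5 V(D)J libraries held 6258 productive TRA contigs, of which 97 were left out by the rule, leaving 6161 chains in 5516 barcodes and 3290 rearrangements. The number of chains was 822 in Control 11, 121 in Control 25, 775 in IFNa 18, 1115 in IFNa 23 and 3328 in the combination. Control 25 stood apart, with 863 barcodes in its gene expression table against 5574 to 9605 in the others, and its shares carry the widest intervals. Each barcode was also in the gene expression table of its liver, where total counts ran from 10464216 to 69856071 UMIs. Between libraries, 10 barcode sequences were shared, and 0 of them carried the same chain. T cell markers were present in these barcodes. A Cd3e UMI was found in 97.6% to 100% of them and a Cd3d UMI in 95.7% to 98.2%. Markers of other cells were found in fewer, with a UMI of the B cell genes Cd79a, Cd79b and Ms4a1 in 2.92% to 6.35%, 10.4% to 15.6% and 1.39% to 3.80%. For the natural killer genes Ncr1 and Klrb1c the range was 1.53% to 6.72% and 3.89% to 12.8%, both highest in IFNa 23, and for the gamma-delta gene Trdc 0% to 1.88%. A UMI of the myeloid gene Lyz2 was found in 13.9% to 32.8%, highest in Control 11, of Csf1r in 7.09% to 12.5% and of C1qa in 1.83% to 4.25%. The part of these cells in any result was not tested.

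Usage was broad, and no V gene dominated the repertoire. TRAV6-6 had the most rearrangements of any V gene, 148 of 3290 (4.50%). Its share was 2.75% in Control 11, 4.63% in Control 25, 4.42% in IFNa 18, 4.57% in IFNa 23 and 5.19% in the combination, so Control 11 was the lowest and the other 4 lay close together. It was followed by TRAV13-1 (109), TRAV12-2 (105), TRAV3D-3 (102), TRAV16N (100), TRAV7D-2 (96), TRAV9-4 (90) and TRAV9-1 (89), and these neighbours in the order do not differ beyond their spread over livers. The 8 leading V genes held 25.5% of rearrangements, 48 of the 87 V genes occurred in all 5 livers, and 14 had fewer than 10 rearrangements in all.

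By family, TRAV6 was the most used, with 11.5%, 14.8%, 14.9%, 15.9% and 15.5% of rearrangements in Control 11, Control 25, IFNa 18, IFNa 23 and the combination. TRAV7 followed with 15.5%, 15.7%, 12.6%, 10.8% and 13.5% in the same order. TRAV9 held 12% of all rearrangements, TRAV12 10.3%, TRAV13 9.94%, TRAV14 9.12%, TRAV4 6.47% and TRAV16 5.90%. Those 8 families held 81.7%. The mouse V region contains duplicated blocks, whose copies carry the letter D or N in their names. Of the rearrangements, 30.9% used a D copy (32 genes), 13.0% an N copy (13 genes) and 56.1% a gene without either letter (42 genes). Copies can be near-identical, and 35 of the 87 V genes shared their CDR1 and CDR2 with another V gene, so a call among such copies is uncertain while its family is less so.

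The V genes whose name carries DV can also join to delta chain segments. These 10 genes ran from 3 rearrangements (TRAV15-1-DV6-1) to 69 (TRAV6-7-DV9), with 58 for TRAV4-4-DV10 and 43 for TRAV21-DV12.

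Among J genes, TRAJ22 had 216 rearrangements, TRAJ31 had 195, TRAJ23 had 164, TRAJ26 had 138, TRAJ27 had 128, TRAJ21 had 126, TRAJ49 had 119 and TRAJ30 had 117. These 8 held 36.6%, and 36 of the 43 J genes occurred in every liver. The TRAJ22 share was 5.85% in Control 11, 4.63% in Control 25, 7.43% in IFNa 18, 7.45% in IFNa 23 and 6.30% in the combination. The TRAJ31 share was 6.2%, 7.41%, 5.49%, 6.43% and 5.67% in the same order. At the other end, chosen after their values were seen, TRAJ2 had 11 rearrangements and TRAJ35 had 15. J usage was thus uneven along the locus, and TRAJ31, TRAJ22 and TRAJ23 each held 4.25% or more in every liver, as the plot of J usage by liver shows. All 130 segments passed into the counts above, while 73 V genes, 17 families and 43 J genes reached the 10 rearrangements required for a test.

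**Figure D1:**
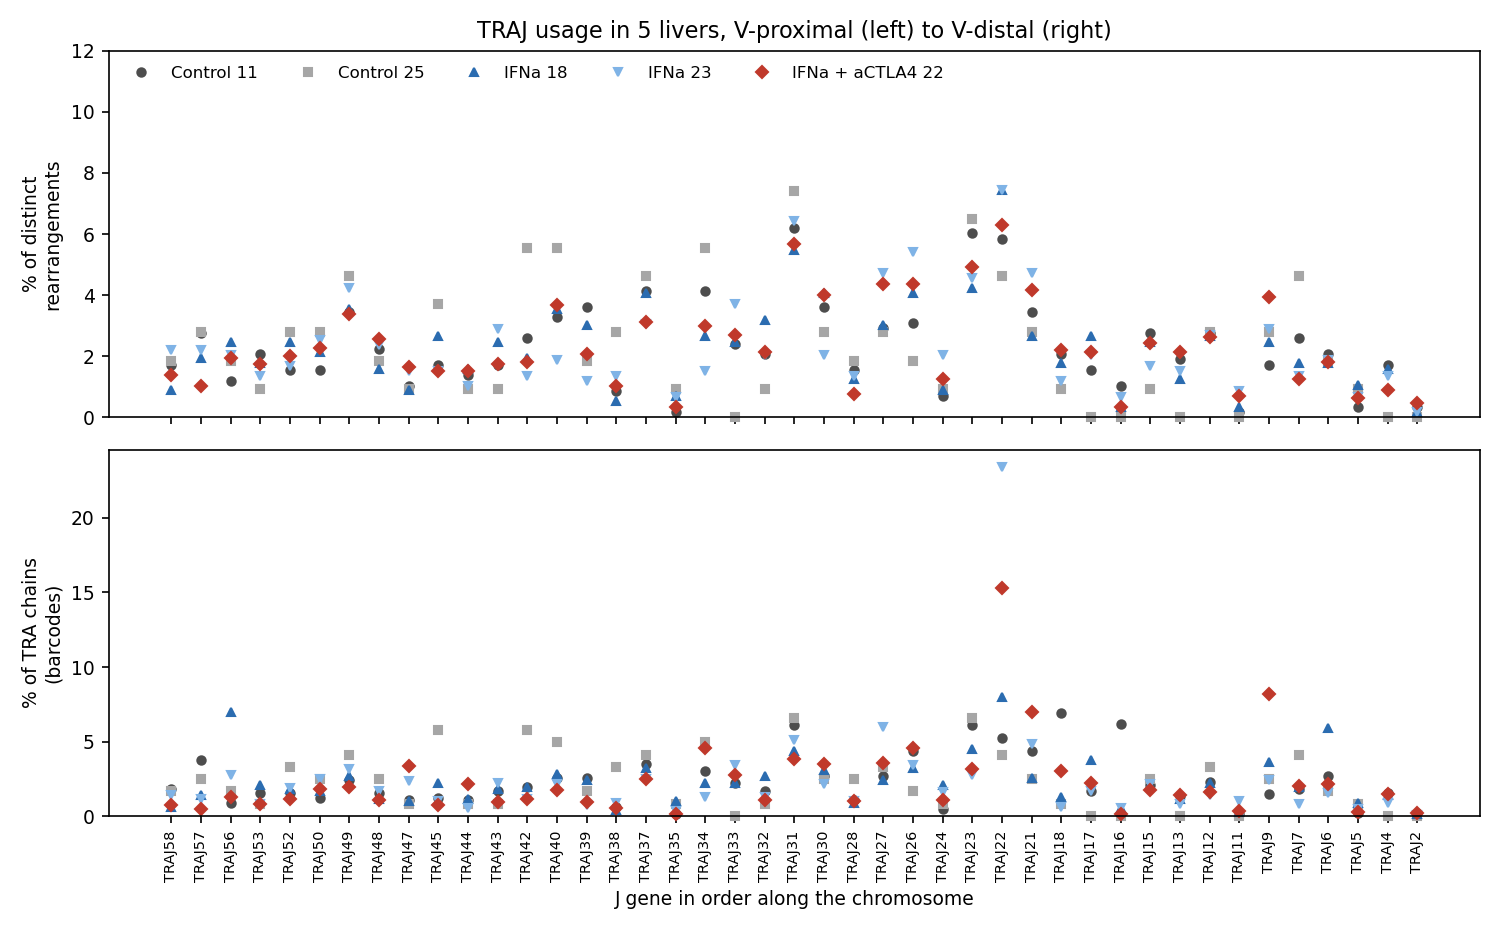
Share of each J gene in % of distinct rearrangements (upper panel) and in % of TRA chains counted by barcode (lower panel), in the order of the J genes along the chromosome, with 1 point per liver. By rearrangements no J gene exceeds 7.45% in any liver, whereas by chains TRAJ22 reaches 23.4% in IFNa 23 and 15.3% in the combination.

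V and J position went together. The 29 V genes nearest to the J genes, TRAV6-5 to TRAV21-DV12, had 1417 rearrangements, and 43.5% of them used a J gene numbered above 40, the end nearest to the V genes. The 29 V genes farthest away, TRAV1 to TRAV3D-3, had 938 rearrangements and 11.6% above TRAJ40, and the 29 between them had 935 and 12.4%. The mean TRAJ number of the nearest 29 V genes minus that of the farthest 29 was 13.2 in Control 11, 11.4 in Control 25, 11 in IFNa 18, 13.6 in IFNa 23 and 12.4 in the combination. The difference was positive in 5 of 5 livers, with a mean of 12.3 ± 1.11 (SD, n = 5; 38.1 against 25.8). An exact two-sided sign-flip permutation test gave p = 0.063, the smallest that 5 livers allow, so this design cannot reach 0.05.

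The high values lay in the V genes nearest to the J genes, and the farthest and the middle 29 had mean TRAJ numbers of 25 and 26. At the J-proximal end the mean TRAJ number was 51.1 for TRAV19, where 93.2% of 44 rearrangements were above TRAJ40, and 50.3 for TRAV21-DV12, where 90.7% of 43 were. At the far end it was 27.3 for TRAV1, with 0 of 22 rearrangements above TRAJ40, and 24.8 for TRAV2. Within 1 family the same pattern appeared by position. TRAV16, late in the order, had a mean of 47.5, whereas its family including the upstream copies had 34.4. Rearrangements were spread over 1555 of 3741 possible V–J pairs.

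**Figure D2:**
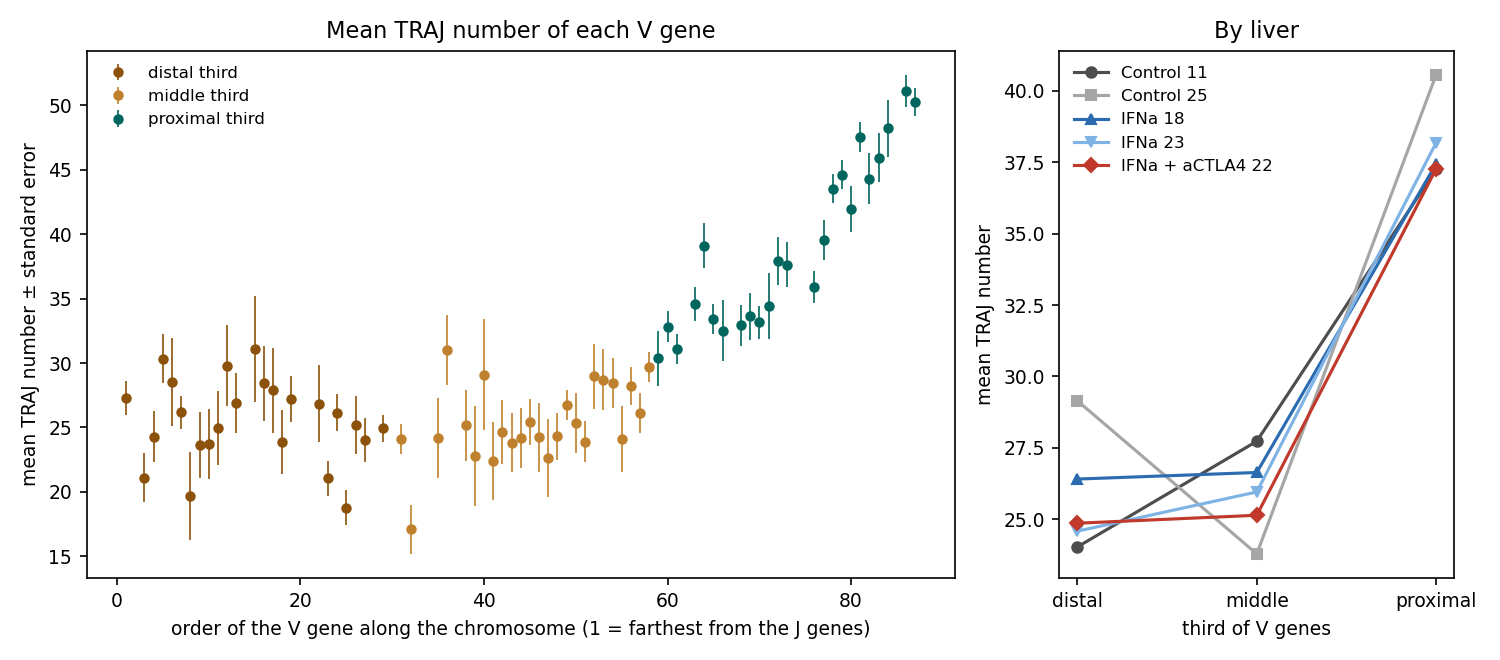
Left, the mean TRAJ number (± standard error over rearrangements) of each V gene with at least 10 rearrangements against its order from the V gene farthest from the J genes. Right, the mean TRAJ number of the farthest, middle and nearest 29 V genes in each liver; all 5 lines rise to the nearest set, by 11 to 13.6 over the farthest.

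The junctions carried few non-germline bases. CDR3 had a median of 42 bases (24 to 60) over the 3287 rearrangements that could be matched to reference V and J ends, with a median of 3 bases matching neither end, and 13.2% had 0 such bases. Per liver, the share with 0 was 15% in Control 11, 12% in Control 25, 12.4% in IFNa 18, 14.1% in IFNa 23 and 12.5% in the combination, and the median was 3 in each. Dntt, which encodes the terminal transferase that adds bases at the junction in the thymus, was low in these peripheral cells, at 2.95, 1.61, 1.35, 0.188 and 0.486 CPM in the same order of livers.

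Rearrangements shared between livers were rare. Of 3250 distinct ones over the series, 37 were found in 2 or more livers, 3 in 3 and 0 in 4 or more. The 37 had a median of 2 non-germline bases, and 24.3% had 0, against a median of 3 and 12.9% for the 3210 found in 1 liver. Of the 37, 29 involved the combination, which had the most rearrangements, and 1 (TRAV13-4-DV7 with TRAJ34) was paired with the same beta chain (TRB) sequence in both of its livers. At the level of the encoded CDR3 peptide with the same V and J genes, 74 of 3174 chains were in 2 or more livers, and 43 of those were encoded by different nucleotide sequences.

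The study's design asks whether the treatments changed these cells. No V gene, V family or J gene differed between the treatment groups by the number of rearrangements, with edgeR's quasi-likelihood test and Benjamini-Hochberg adjustment at 0.05. Both comparisons with Control share its 2 livers. For IFNa against Control the test called 0 of 73 V genes (0%), 0 of 17 families (0%) and 0 of 43 J genes (0%), with 2, 1 and 1 at an unadjusted p under 0.05, and DESeq2 called 0 of each. The combination against Control gave 0 of each (0%), with 1, 1 and 3 at an unadjusted p under 0.05, and 0 with DESeq2. The combination against IFNa gave 0 of each (0%), with 3, 1 and 1 at an unadjusted p under 0.05, and 0 with DESeq2. Leaving out IFNa 18 gave 1 family call for IFNa against Control, TRAV1 (adjusted p = 0.0259). TRAV1 had 10 rearrangements in IFNa 23 against 1, 0 and 2 in Control 11, Control 25 and IFNa 18, and the combination had 9. That fit has IFNa 23 as its only IFNa liver, so the spread comes from the Control pair alone and is taken to apply to IFNa 23 as well.

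The segments with the smallest p are given here by liver. TRAV9N-4 was 1.20% of rearrangements in Control 11, 0% in Control 25 (0 of 108, which allows up to 2.78%), 1.95% in IFNa 18, 1.35% in IFNa 23 and 0.277% in the combination. The combination was below both IFNa livers but above Control 25. Its fitted log2 fold change against IFNa was -2.50 (SE 0.80), adjusted p = 0.151, whereas by barcodes it passed the test. TRAV9D-3 was 1.72% in Control 11, 0.926% in Control 25, 3.54% in IFNa 18 and 3.38% in IFNa 23. Its log2 fold change for IFNa against Control was 1.12 (SE 0.43), with adjusted p = 0.991. The combination liver held 2.35%. Among J genes TRAJ57, at the V-proximal end, was 2.75%, 2.78%, 1.95%, 2.2% and 1.04% in Control 11, Control 25, IFNa 18, IFNa 23 and the combination. The combination was the lowest and both Controls the highest, with a log2 fold change of -1.39 (SE 0.36) against Control and adjusted p = 0.374. TRAJ9, at the opposite end of the J genes, was 1.72%, 2.78%, 2.48%, 2.88% and 3.94% in that order, highest in the combination (log2 fold change 1.06 against Control, adjusted p = 0.380).

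Counting barcodes in place of rearrangements lets a large clone count once for each of its cells, and it gave calls that rearrangements did not. TRAV13N-3 was lower by barcodes in IFNa than in Control (adjusted p = 0.000349). It held 5.23% of chains but 0.516% of rearrangements in Control 11, where 1 chain of 41 barcodes carried it. Control 25 had 0% of chains (0 of 109 barcodes, which allows up to 2.75%), and IFNa 18 and IFNa 23 had 0.129% and 0.448%. TRAJ16 was also lower by barcodes (adjusted p = 0.0193), at 6.2% of chains in Control 11 against 0.538% or less in the other 4 livers, and 2 chains of 32 and 15 barcodes carried most of it. TRAV6N-6 was higher by barcodes in the combination than in Control (adjusted p = 0.0250), at 7.54% of chains against 0.826% and 0.973%, and 1 chain of 235 barcodes carried it. By rearrangements TRAV6N-6 was 0.900% in the combination and 1.20% and 0.926% in the Controls. These values go with 1 or 2 large chains of 1 liver. TRAV9N-4 was different. By barcodes it was lower in the combination than in Control (adjusted p = 0.0381) and than in IFNa (adjusted p = 0.0298), at 0.120% of chains against 1.70% and 0% in the Controls and 1.94% and 0.807% in the IFNa livers. Its largest chain held 6 of 14 barcodes in Control 11, 4 of 15 in IFNa 18 and 2 of 9 in IFNa 23, so no single chain carried it. Of the other calls by barcodes, TRAV13N-3 and TRAJ16 were also lower in the combination than in Control. TRAV6N-6 was also higher in the combination than in IFNa, and TRAJ18 was lower in IFNa than in Control. In Control 11, TRAJ18 held 57 barcodes, of which 41 were the TRAV13N-3 chain above. That chain and the TRAJ16 chain of 32 barcodes occurred together in 31 barcodes. The TRAV13N-3, TRAJ16 and TRAJ18 calls thus share many of their cells. Of the V families, TRAV8, TRAV13 and TRAV17 were lower and TRAV6 and TRAV14 higher by barcodes in IFNa than in Control. TRAV17 had 11 and 2 barcodes in the Controls, 7 and 2 of them from 1 chain, against 3 and 1. Without the largest chain of each liver, TRAV14 was 8.33% and 7.63% in the Controls against 10.9% and 8.17% in IFNa. TRAV6 was then 8.54% and 13.4% against 14.5% and 14.3%. TRAV13 was 10.4% and 14.3% against 7.37% and 5.15%, and TRAV8 4.21% and 3.33% against 1.68% and 2.25%. In the combination TRAV17 was lower and TRAV6 higher than in Control, and TRAV14 was lower and TRAV3 higher than in IFNa.

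The largest chain of each liver differed in its V–J pair from those of the other livers. Control 11 was led by TRAV13N-3 with TRAJ18 (41 barcodes, 4.99% of chains), Control 25 by TRAV7D-2 with TRAJ45 (4 barcodes, 3.31%) and IFNa 18 by TRAV14N-3 with TRAJ56 (39 barcodes, 5.03%). IFNa 23 was led by TRAV14D-1 with TRAJ22 (172 barcodes, 15.4%) and the combination by TRAV6N-6 with TRAJ22 (235 barcodes, 7.06%). The mean number of chains per rearrangement was 1.41, 1.12, 1.37, 1.89 and 2.30, and the share of rearrangements seen in a single barcode was 88.8%, 90.7%, 89.2%, 82.6% and 81.2% in the same order. The combination also had the most chains, and the part of depth in these values was not tested.

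Segment usage differed between cells with Cd8a and cells with Cd4. A barcode was put in the Cd8a class with at least 1 Cd8a UMI and 0 Cd4 UMIs, and in the Cd4 class the other way round. The Cd4 class held 307, 49, 297, 304 and 776 barcodes, and the Cd8a class 233, 35, 253, 503 and 1751, in Control 11, Control 25, IFNa 18, IFNa 23 and the combination. Barcodes with neither UMI (169, 25, 148, 199 and 367) or with both (11, 0, 2, 6 and 81) were left out of this comparison. A Cd4 UMI was found in 28.8% to 45% of barcodes with a TRA chain and in 0.369% to 1.92% of B cells, and a Cd8a UMI in 32.1% to 61.6% and 0% to 4.67%, the highest B cell value being that of the combination. Median depth was 6145 to 7922 UMIs in the TRA barcodes and 3976.5 to 5415 in the B cells. A share of 0 below allows up to 6.25% in the Cd4 class of Control 25 (48 rearrangements), 8.57% in its Cd8a class (35) and 1.37% in the Cd8a class of IFNa 18 (219). With liver as a block, edgeR's quasi-likelihood test called 3 of 17 V families (17.6%), 10 of 68 V genes (14.7%) and 2 of 42 J genes (4.76%) at an adjusted p under 0.05.

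The TRAV9 family was used more in the Cd4 class. It made up 14.3%, 10.4%, 17.3%, 19.6% and 15.3% of Cd4 rearrangements and 7.61%, 8.57%, 11.9%, 9.50% and 6.93% of Cd8a rearrangements in Control 11, Control 25, IFNa 18, IFNa 23 and the combination. The Cd4 value was higher in 5 of 5 livers, while the ranges over livers overlapped through Control 25 and IFNa 18. The log2 fold change for Cd8a against Cd4 was -0.90 (SE 0.21), adjusted p = 0.000945. TRAV12 was used more in the Cd8a class, with 14.7%, 8.57%, 13.2%, 12.2% and 11.7% against 6.37%, 4.17%, 5.91%, 6.03% and 7.03% of Cd4 rearrangements, and the classes did not overlap (log2 fold change 0.97, SE 0.24, adjusted p = 0.000945). TRAV16 was also used more in the Cd8a class, with 11.4%, 8.57%, 9.13%, 8.60% and 7.60% against 3.19%, 6.25%, 3.64%, 2.01% and 4.68%, again without overlap (1.22, SE 0.31, adjusted p = 0.000945). These 3 family calls held without each liver in turn and with DESeq2, and were lost when barcodes were counted in place of rearrangements (adjusted p = 0.403 for TRAV9, 0.726 for TRAV12 and 0.505 for TRAV16).

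Members of the TRAV9 family went both ways. TRAV9D-3 was 0.398%, 0%, 0.909%, 2.01% and 0.180% of Cd4 rearrangements and 2.72%, 2.86%, 5.48%, 4.52% and 3.21% of Cd8a rearrangements, so every Cd8a value was above every Cd4 value (log2 fold change 2.46, SE 0.55, adjusted p = 0.000876). TRAV9-1, TRAV9-2, TRAV9-4 and TRAV9D-1 were instead higher in the Cd4 class, with log2 fold changes of -1.37, -1.50, -1.70 and -2.46 and adjusted p of 0.0353, 0.0353, 0.0121 and 0.0353. TRAV9-2 was 2.79%, 2.08%, 2.27%, 4.52% and 3.60% of Cd4 rearrangements against 1.63%, 0%, 1.37%, 0.905% and 1.0% of Cd8a rearrangements. It was higher in the Cd4 class in 5 of 5 livers, and TRAV9-1, TRAV9-4 and TRAV9D-1 each in 4 of 5. The exceptions were Control 11 for TRAV9-1 (2.39% of Cd4 against 2.72% of Cd8a rearrangements), Control 25 for TRAV9-4 (2.08% against 5.71%) and IFNa 18 for TRAV9D-1 (0.455% against 0.457%). TRAV9N-4, the remaining member that could be tested, had a log2 fold change of -2.03 and adjusted p = 0.102. In the sequences above, TRAV9D-3 differs from TRAV9-2 by 1 base in CDR1 and 1 in CDR2, from TRAV9-4 by 2 and 2, and from TRAV9-1 by 9 and 3. TRAV9-1 and TRAV9D-1 are identical in both.

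Other V genes called were TRAV12-2, TRAV8D-2 and TRAV16, higher in the Cd8a class, and TRAV7D-2 and TRAV13D-2, higher in the Cd4 class. TRAV12-2 was 5.43%, 2.86%, 4.11%, 1.81% and 4.73% of Cd8a rearrangements against 1.20%, 0%, 0.455%, 1.51% and 1.08% of Cd4 rearrangements (log2 fold change 1.98, SE 0.51, adjusted p = 0.00412). Of the 6 TRAV12 genes tested, TRAV12-2 was the one called. The other 5 had log2 fold changes from -0.64 (TRAV12D-1) to 1.12 (TRAV12D-3, adjusted p = 0.0956). The 3 TRAV16 genes tested all had positive values, 1.43 for TRAV16 (adjusted p = 0.0398), 1.39 for TRAV16D-DV11 and 1.04 for TRAV16N. TRAV13D-2 was 3.98%, 4.17%, 4.55%, 1.51% and 2.16% of Cd4 rearrangements against 0.543%, 0%, 0%, 0.905% and 1.18% of Cd8a rearrangements (-1.84, SE 0.57, adjusted p = 0.0241). TRAV7D-2 had a log2 fold change of -1.40 (adjusted p = 0.0353) and TRAV8D-2 of 2.63 (adjusted p = 0.0353). The gene calls were less stable than the family calls. V gene calls numbered 1 when Control 11 was left out, 11 when Control 25 was, 2 for IFNa 18, 6 for IFNa 23 and 0 for the combination, and DESeq2 called 3. TRAV9D-3 was lost only without the combination among the livers left out.

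Of the J genes, TRAJ31 was used more in the Cd4 class and TRAJ47 more in the Cd8a class. TRAJ31 was 9.16%, 8.33%, 5.45%, 11.1% and 8.29% of Cd4 rearrangements against 1.09%, 8.57%, 5.48%, 3.62% and 4.05% of Cd8a rearrangements. It was higher in the Cd4 class in 3 of 5 livers and nearly equal in Control 25 and IFNa 18 (log2 fold change -1.11, SE 0.28, adjusted p = 0.00483). TRAJ47 was 0.398%, 0%, 0.455%, 1.0% and 0.541% of Cd4 rearrangements against 1.63%, 2.86%, 1.83%, 2.71% and 2.70%, without overlap (1.98, SE 0.55, adjusted p = 0.00818). The next smallest p, for TRAJ6, missed the threshold (-1.33, adjusted p = 0.0565). The J calls fell to 0 without Control 11 and without the combination, were 4 without IFNa 18, and were 0 with DESeq2. The mean TRAJ number did not separate the classes, with a difference for Cd8a minus Cd4 of -0.27, 0.83, 0.83, -2.66 and -0.29 in the 5 livers, a mean of -0.31 ± 1.42 (SD, n = 5) and p = 0.813 (exact two-sided sign-flip permutation test).

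**Figure D3:**
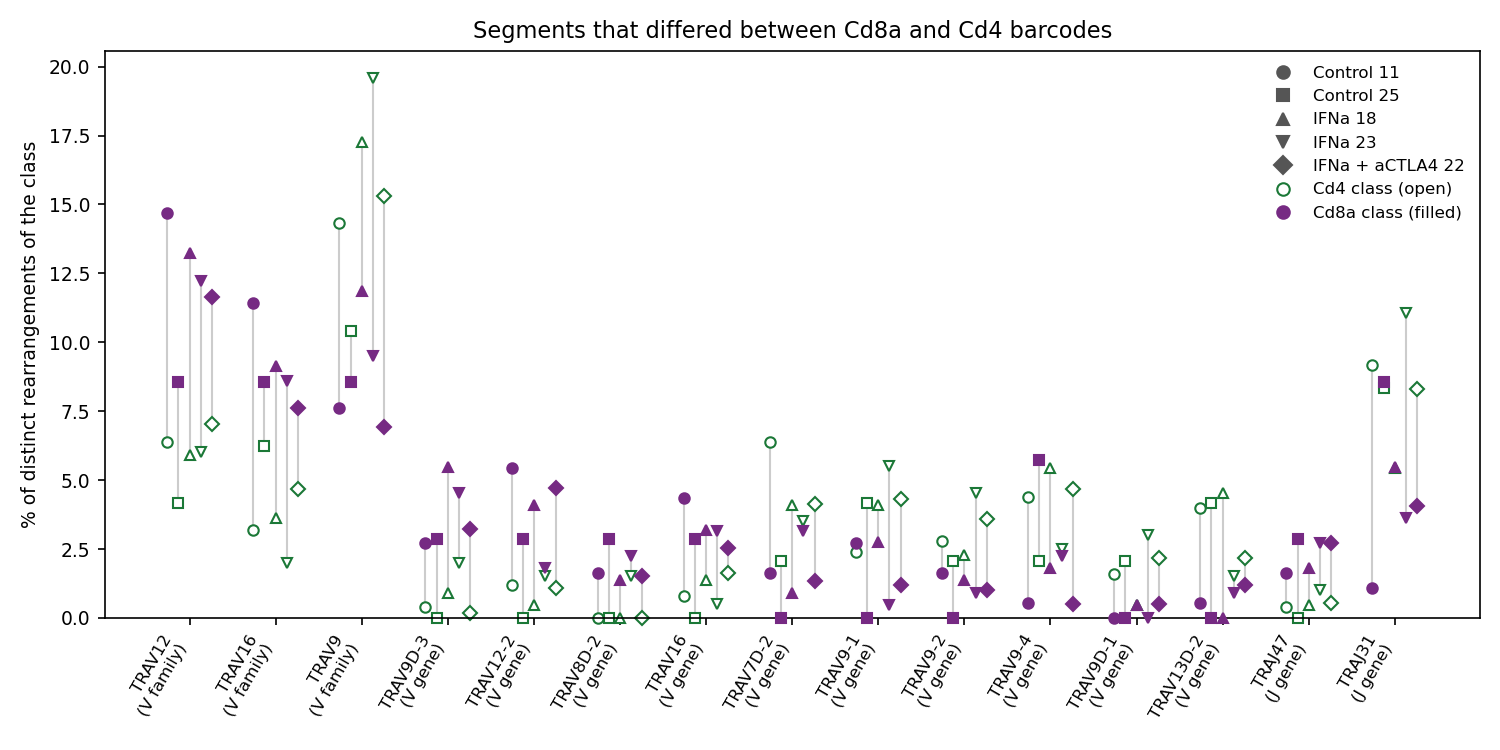
Share of each called V family, V gene and J gene in % of the distinct rearrangements of the Cd4 class (open green symbols) and the Cd8a class (filled purple symbols), with 1 symbol shape per liver and a grey line joining the classes of a liver. TRAV12, TRAV16 and TRAV9D-3 are higher in the Cd8a class in 5 of 5 livers, and the TRAV9 family is higher in the Cd4 class in 5 of 5.

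Of the 7 V–J pairs with 12 or more rearrangements, 6 had at most 1 rearrangement in the lesser class. Of the 34 pairs with 8 or more, 18 did. Others were mixed, such as TRAV13-1 with TRAJ34 (3 in the Cd4 class and 6 in the Cd8a class) and TRAV6-6 with TRAJ30 (4 and 5). A pair with few rearrangements in either class meets this easily or in any case, such as TRAV10 with TRAJ31 (4 and 1) and TRAV12-2 with TRAJ40 (0 and 3). How many pairs would meet it by small numbers alone was not computed. All 34 were chosen for their number, their classes are counts with no test, and cells of different rearrangements of a pair share a liver. TRAV4D-4 with TRAJ21 had 26 rearrangements in 4 livers, of which 23 occurred in the Cd8a class and 1 in the Cd4 class. The Cd8a count was 2 in Control 11, 0 in Control 25, 1 in IFNa 18, 6 in IFNa 23 and 14 in the combination. Of the 26, 23 had a CDR3 of 42 bases, and the 26 encoded 18 distinct CDR3 peptides. The 1 rearrangement with a Cd4 barcode is the first TRAV4D-4 sequence above, with 31 barcodes in the Cd8a class and 1 in the Cd4 class. TRAV4D-4 as a whole did not differ between classes (log2 fold change -0.12, SE 0.49, adjusted p = 0.889).

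Among the 7 leading pairs, TRAV9 genes filled most of the Cd4 side. TRAV9-4 with TRAJ31 had 20 rearrangements, 16 in the Cd4 class and 0 in the Cd8a class, TRAV9-2 with TRAJ31 had 16, with 15 and 0, and TRAV9-1 with TRAJ27 had 15, with 15 and 0. TRAV9-1 with TRAJ31 had 13, with 9 and 1, and TRAV7D-2 with TRAJ23 had 12, with 11 and 1. TRAV6-6 with TRAJ23, by contrast, had 12, with 5 and 3. Over the whole TRAV9 family, 46 rearrangements with TRAJ31 were in the Cd4 class and 3 in the Cd8a class. By liver, in the order used above, the Cd4 counts were 8, 1, 7, 12 and 18 and the Cd8a counts 0, 0, 1, 0 and 2. All TRAJ31 rearrangements together gave 107 and 49. Of the 37 rearrangements shared between livers, 5 joined a TRAV9 gene to TRAJ31, and their barcodes numbered 21 in the Cd4 class and 0 in the Cd8a class. Among these, TRAV9-4 with TRAJ31 occurred in IFNa 18 (2 barcodes), IFNa 23 (2) and the combination (6), all in the Cd4 class, with a different main beta chain in each.

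TRAJ22 stood out by the number of cells rather than of rearrangements. By chains its share was 5.23% (exact 95% interval 3.81 to 6.98) in Control 11, 4.13% (1.36 to 9.38) in Control 25, 8.0% (6.19 to 10.1) in IFNa 18, 23.4% (21 to 26) in IFNa 23 and 15.3% (14.1 to 16.6) in the combination. These Clopper-Pearson intervals cover counting error only. IFNa 23 and the combination lay above the other 3 livers, while the shares of rearrangements given above lay between 4.63% and 7.45%. For rearrangements the log2 fold change was 0.39 for IFNa against Control (adjusted p = 0.718) and 0.15 for the combination against Control (adjusted p = 0.863) with edgeR. Without the largest TRAJ22 chain of each liver, the shares by chains were 4.65%, 3.33%, 6.68%, 9.44% and 8.89%. Within the Cd8a class TRAJ22 made up 6.81%, 5.26%, 11.8%, 41.2% and 20.3% of chains, and within the Cd4 class 4.09%, 1.85%, 5.02%, 5.34% and 7.48%. Of the 69 rearrangements with at least 10 barcodes in a liver, 11 used TRAJ22, 6 of them in the combination and 4 in IFNa 23.

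**Figure D4:**
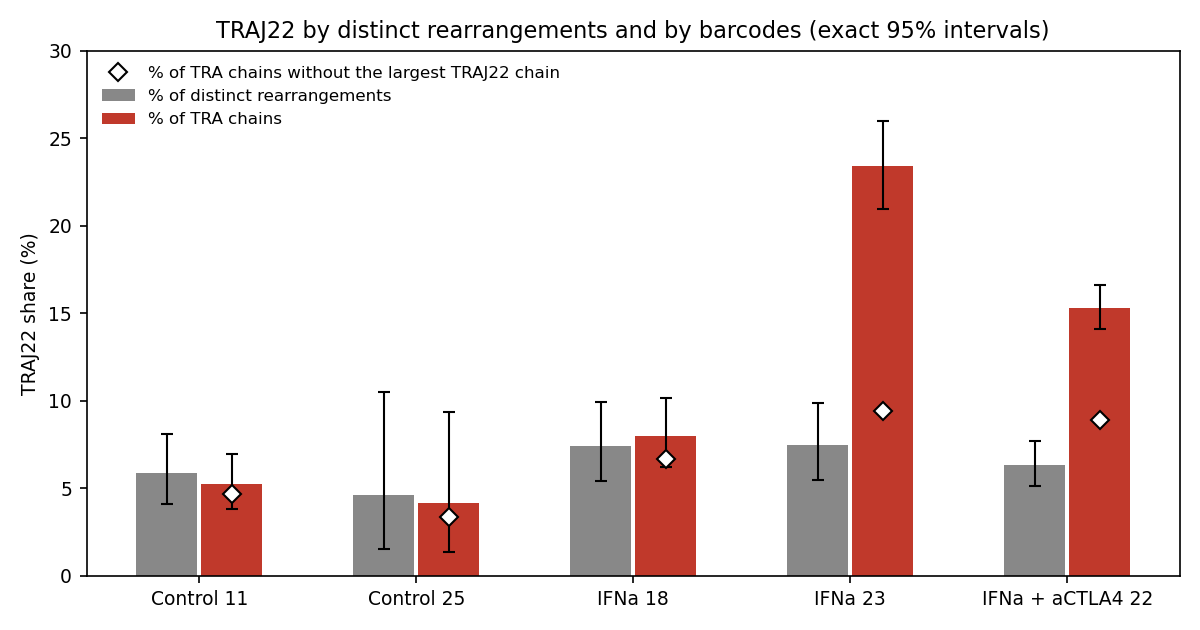
TRAJ22 share in each liver in % of distinct rearrangements (grey bars) and in % of TRA chains by barcode (red bars), with exact 95% intervals for counting error, and the chain share without the largest TRAJ22 chain (open diamonds). The red bar reaches 23.4% in IFNa 23 and 15.3% in the combination, and the diamonds there stand at 9.44% and 8.89%.

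Several of the large TRAJ22 chains were paired with 1 kind of beta chain. This group was singled out after its values were seen. It holds the barcodes with a TRBV16–TRBJ2-7 beta chain encoding 1 CDR3 peptide, through 6 nucleotide sequences. Such barcodes numbered 4 in Control 11, 0 in Control 25 (of 124 barcodes with a beta chain, which allows up to 2.42%), 29 in IFNa 18, 199 in IFNa 23 and 87 in the combination, or 0.506%, 0%, 3.52%, 17.7% and 2.55% of barcodes with a beta chain. Of the 305 that also had a TRA chain, 289 (94.8%) carried a TRAJ22 chain, 296 were in the Cd8a class and 0 in the Cd4 class. The share with TRAJ22 was 2 of 2 in Control 11, 193 of 193 in IFNa 23 and 79 of 81 in the combination, but 15 of 29 (51.7%) in IFNa 18. Those TRAJ22 chains comprised 6 sequences over 5 V genes (TRAV7-4, TRAV14D-1, TRAV14-1, TRAV12-2 and TRAV7N-4), the first 6 printed above, and each had a CDR3 of 48 bases. Without this beta group, TRAJ22 made up 5.0%, 4.13%, 6.40%, 7.42% and 13.3% of chains. That left IFNa 23 near the other livers and the combination the highest. In the combination the largest chain, TRAV6N-6 with TRAJ22, was paired with TRBV13-3–TRBJ2-1 in 229 of 235 barcodes, with 227 in the Cd8a class.

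Among these chains, TRAV7-4 with TRAJ22 was found as 1 identical sequence in IFNa 18 (11 barcodes), IFNa 23 (11) and the combination (74). It was found in 0 of 720 barcodes of Control 11 and 0 of 109 of Control 25, which allows up to 0.417% and 2.75%. Of its 96 barcodes, 92 were in the Cd8a class and 0 in the Cd4 class. Its beta chain differed in nucleotides between livers while encoding the same CDR3 peptide in 94 barcodes, through 4 sequences, printed here with capitals at the positions that differ among them.
TRBV16 TRBJ2-7 of IFNa 18, 11 barcodes: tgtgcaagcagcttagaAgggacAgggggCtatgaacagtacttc
TRBV16 TRBJ2-7 of the combination, 72 barcodes: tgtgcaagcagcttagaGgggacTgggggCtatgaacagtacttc
TRBV16 TRBJ2-7 of IFNa 23, 8 barcodes: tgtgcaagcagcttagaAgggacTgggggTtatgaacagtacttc
TRBV16 TRBJ2-7 of IFNa 23, 3 barcodes: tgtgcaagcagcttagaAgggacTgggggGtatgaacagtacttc

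A few chains match known innate-like T cells. TRAV1 with TRAJ33 is the chain of mucosal-associated invariant T (MAIT) cells, which recognise vitamin B metabolites on the molecule MR1 and depend on Zbtb16, the gene of the transcription factor PLZF. It was found in 3 of 720 barcodes in Control 11, 0 of 109 in Control 25, 0 of 700 in IFNa 18, 4 of 1012 in IFNa 23 and 5 of 2975 in the combination, 12 in all. The livers with 0 allow up to 2.75% and 0.429%. Of the 12 barcodes, 10 had neither a Cd4 nor a Cd8a UMI, and 10 (83.3%) had a Zbtb16 UMI, against 81 of the other 5504 (1.47%), with median depths of 6228.5 and 7099.5 UMIs. The sequence printed above, with 0 non-germline bases, made up 9 of the 12 in 3 livers, and 7 of the 11 with a beta chain used TRBV13, a beta family common in mouse MAIT cells. TRAV11 joined to a J gene other than TRAJ18 had 7 rearrangements in 36 barcodes, 29 of them in the combination. There 1 chain, TRAV11–TRAJ27, held 27 of the 29. In 16 barcodes it occurred with TRAV6-6–TRAJ9, and all 16 were in the Cd8a class. TRAJ18 joined to other V genes had 12, 1, 10, 7 and 32 rearrangements in Control 11, Control 25, IFNa 18, IFNa 23 and the combination.

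Barcodes with 2 productive TRA chains were common. Both chromosomes can carry a productive TRA joint, because alpha chains are not strictly limited to 1 allele. The share was 14.2% (exact 95% interval 11.7 to 16.9) in Control 11, 10.1% (5.15 to 17.3) in Control 25, 10.7% (8.52 to 13.2) in IFNa 18, 10.2% (8.38 to 12.2) in IFNa 23 and 11.9% (10.7 to 13.1) in the combination, and the intervals overlapped. In Control 25, 1 barcode held the same rearrangement in 2 contigs and was counted with 1 chain here. IFNa minus Control was -1.68 percentage points (10.4% against 12.1%), with p = 1 in an exact two-sided permutation test of 2 against 2 livers, which cannot go below 0.33. The Cd8a share minus the Cd4 share was 8.34, -4.49, 6.82, -10.3 and -0.56 percentage points in the 5 livers, so its sign differed between livers (mean -0.05 ± 7.80, SD, n = 5; exact two-sided sign-flip permutation p = 1). Large clones weigh on these shares. In Control 11, 31 of the 102 such barcodes carried TRAV13N-3–TRAJ18 with TRAV7D-4–TRAJ16, and 28 of these 31 were in the Cd8a class.

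Such barcodes can also be doublets. Among the 644 barcodes with 2 TRA chains, 41 (6.37%) had 2 beta chains, against 142 of 4872 (2.91%) with 1 TRA chain, and their median depth was higher in 4 of 5 livers (7190 to 8579 against 6080 to 7810 UMIs in those 4, and 6665 against 7960 in Control 25). In barcodes with both a Cd4 and a Cd8a UMI, 6 of 11 in Control 11 and 22 of 81 in the combination had 2 TRA chains. The part of doublets in the shares was not tested further. Barcodes with exactly 1 beta chain gave -0.16 percentage points for Cd8a minus Cd4.

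The J positions of the 2 chains in a barcode were correlated. Over 381 distinct pairs of chains, the TRAJ numbers differed by a median of 7, and 67.7% lay within 10 of each other. Pearson's r between the TRAJ numbers was 0.59 and Spearman's rho 0.59. The median and the share within 10 were not computed for chains of different barcodes. Within livers r was 0.66 in Control 11, 0.52 in IFNa 18, 0.66 in IFNa 23 and 0.57 in the combination, and Control 25 had 11 pairs and no value. Pairs of 1 liver share a library and are not independent, so r is a description. For the order of the V genes r was 0.24. In 50 pairs both chains were above TRAJ40, in 67 pairs 1 was, and in 264 neither was. Among the 346 pairs from barcodes with 1 beta chain, r was 0.64 with the same median of 7.

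**Figure D5:**
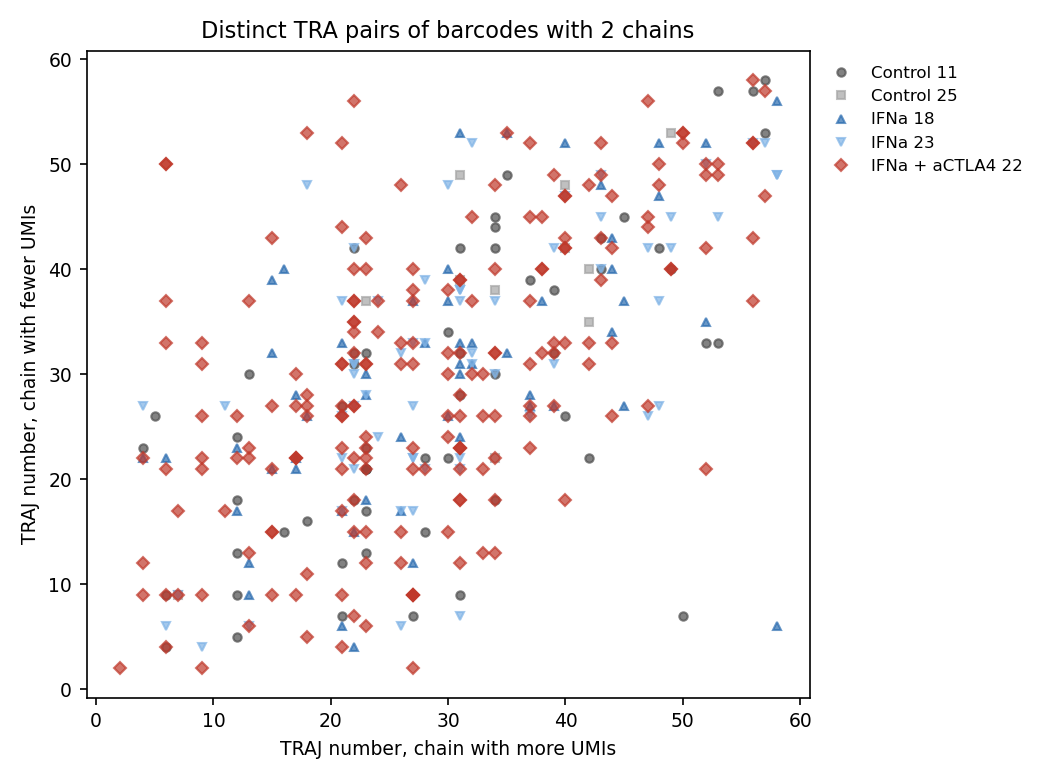
TRAJ number of the chain with fewer UMIs against that of the chain with more UMIs, 1 point per distinct pair of chains found together in barcodes with 2 TRA chains, coloured by liver. Of the 381 points, 67.7% lie within 10 J numbers of the diagonal, and some of the others lie far from it.

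The V gene called from the contig was compared with the UMIs of V genes in the gene expression library. Among 62 V genes with at least 20 barcodes carrying a single TRA chain, 45 had a UMI of the same V gene in at least 65.6% of those barcodes. For 14 V genes it was at most 1.30%, and their genes had at most 5 UMIs over all kept barcodes. These 14 include TRAV6-6, TRAV3D-3, TRAV4D-4, TRAV14D-1, TRAV9D-3 and TRAV13D-2, and they carried 1527 of the 4659 chains compared. Over the remaining chains, 92.2% had a UMI of their own V gene. TRAV7D-2 lay between, at 18%. For these V genes the gene expression library gives no second reading of the V call.

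No gene of the receptor's signalling pathway passed the test between groups. UMIs were summed per liver over barcodes with a TRA chain, and 22 of the 25 listed genes could be tested. With edgeR's quasi-likelihood test, 0 of 22 passed for IFNa against Control, where 0.457% of all 13798 genes did, and 0 of 22 for the combination against Control, where 0.935% did. At an unadjusted p under 0.05 there were 3 and 5, and DESeq2 called 2 (Nr4a1 and Egr1, both lower) and 2 (Egr1, lower, and Cd8b1, higher). Over all 13798 genes, DESeq2 called 190 and 381. Without IFNa 23, 1 of 22 passed for the combination, the coreceptor gene Cd8a. The median log2 fold change of the list was 0.06 and 0.14, against -0.00 and -0.01 over all genes tested. Egr1, an early gene induced by receptor signalling, was at 147 and 183 CPM for the Control pair, 77.4 and 104 for the IFNa pair and 79.8 for the combination (log2 fold change -0.82, SE 0.18, adjusted p = 0.253 for IFNa). Nr4a1, another such gene, was at 258 and 269, 163 and 169, and 195 CPM in the same order (-0.64, SE 0.13, adjusted p = 0.188 for IFNa). Cd8a was at 245, 199, 291, 576 and 667 CPM, highest in IFNa 23 and the combination, the 2 livers with the largest Cd8a clones. The share of TRA barcodes with a Cd8a UMI was 33.9%, 32.1%, 36.4%, 50.3% and 61.6% in the same order. Within the Cd8a class alone, 0 of 20 listed genes passed in either comparison, where 3 and 60 of all 11791 genes did. The part of this mix of classes in the values of the other genes was not tested.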

How the data were processed

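The data are 10 single-cell libraries, a gene expression and a V(D)J library for each of 5 mouse livers, joined by the sample number in the labels. Per the submitters' processing notes, the authors used Cell Ranger 7.0.1 and mm10. The deposited matrices give raw counts of UMIs for each gene in each barcode, and the deposited contig tables hold reads and UMI counts per contig. The labels' extraction text names a 3' v3.1 kit for both kinds of library. Nothing in the labels says that the livers came from separate mice, so part of the spread behind the p-values may be technical.

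Productive TRA contigs were counted by distinct rearrangement and by barcode per liver. Counts of rearrangements were tested with edgeR 4.0.16 (quasi-likelihood, library size set to the total of rearrangements, segments with at least 10 rearrangements, Benjamini-Hochberg over the whole table), with all 5 livers in 1 fit of 3 groups and, between classes, with liver as a block; DESeq2 1.42.0 was an alternative. The SE of a log2 fold change is its size divided by the square root of F. The scripts were tested on simulated data. Gene counts were summed per liver over barcodes with a TRA chain, 200 or more genes and no more than 15% mitochondrial UMIs, with TMM scaling. B cells were barcodes without any contig in the V(D)J library and with at least 3 Cd79a UMIs and 1 Ms4a1 UMI. No doublet caller was run, and barcodes with 2 beta chains were counted instead. Junctions and positions were read against GENCODE M21 (GRCm38, the assembly of mm10). No protein sequences were used here.

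Segments are named by this rule: the 8 V genes, families and J genes with the most rearrangements, those with an adjusted p under 0.05 in a comparison (the 3 with the smallest p where fewer than 3 passed), a list of families and known chains, the 3 largest chains of each liver and the chains in at least 3 livers. Members and lists were chosen with earlier results of these data known, and what is named beyond the rule was chosen after its values were seen. Alternatives were TMM factors, DESeq2, no filter, no liver block, each liver left out, barcodes in place of rearrangements, the authors' clonotype identifiers, barcodes with 1 TRA and at most 1 TRB chain, contigs with at least 2 UMIs, quality-filtered barcodes, and 2 other definitions of the classes.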

Additional observations from a re-analysis of the deposited data

How the results depend on the processing

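The treatment comparisons stayed at 0 calls except by barcodes, which gave 1 V gene for IFNa against Control, 3 for the combination against Control and 2 for the combination against IFNa, 5, 2 and 2 V families, and 2 and 1 J genes in the first and second of these. Leaving out each liver gave 0 to 1 V families for IFNa against Control. Between classes, V gene calls were 3 with DESeq2, 16 without the liver block, 0 by barcodes and 0 to 11 with a liver left out. V family calls were 5 without the liver block and 0 by barcodes. J gene calls were 0 with DESeq2, 8 without the liver block, 0 by barcodes, 4 with the authors' clonotype identifiers, 10 with barcodes of 1 TRA and at most 1 TRB chain, 4 with contigs of at least 2 UMIs, 4 with at least 2 UMIs of Cd8a or Cd4, and 0 to 4 with a liver left out. Receptor pathway calls were 2 with DESeq2 and 3 without the filter in each comparison with Control, and 0 to 1 with a liver left out for the combination. Without the filter, 539 and 931 of all 21998 genes passed for IFNa and for the combination against Control. The mean TRAJ difference between classes was -2.47 by barcodes, and that between near and far V genes was 10.6 by barcodes and 13.6 with barcodes of 1 TRA and at most 1 TRB chain. In 3 results the direction turned, none of them past the threshold: TRAV9N-4 for the combination against Control ran from -2.05 to 4.0 with a liver left out, being 4.0 without Control 11, TRAV7 for the combination against IFNa was -0.0432 by barcodes, and TRAJ26 for IFNa against Control was -0.0867 by barcodes. The cause was not tested. Over the 43 results for single named segments, 489 of 573 alternatives kept direction and side of the threshold, 72 lost the call, all between classes, and 9 gained it. No paired analysis was possible because the replicate numbers are liver numbers that no 2 groups share; between classes the replicate block is the liver itself. Control 25 had 108 rearrangements, so a segment used at under 2.78% may be missing there by depth alone.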

Other observations

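Several large clones in the combination liver were paired in barcodes with 2 TRA chains. TRAV14D-3-DV8–TRAJ47 with TRAV6N-7–TRAJ44 occurred together in 30 barcodes and TRAV12D-2–TRAJ28 with TRAV13N-4–TRAJ18 in 21, with 30 and 20 of them in the Cd8a class. TRAV6-6–TRAJ9 was found with TRAV9D-3–TRAJ4 in 17 barcodes and with TRAV11–TRAJ27 in 16. The 2 largest chains of IFNa 18 were instead in the Cd4 class, where TRAV14N-3–TRAJ56 had 32 of its 39 barcodes and TRAV6-6–TRAJ6 had 25 of its 36, with 0 of either in the Cd8a class. The third largest there, TRAV7-4–TRAJ24, had 12 of 12 barcodes in the Cd8a class, and all 12 carried a TRBV16–TRBJ2-7 beta chain. The beta chain most often paired with TRAV6-6–TRAJ6 also used TRBV16–TRBJ2-7, in 31 barcodes. The TRAV6-6–TRAJ6 barcodes lie outside the beta group with 1 CDR3 peptide described above. All 29 barcodes of that group in IFNa 18 were in the Cd8a class. Whether the TRAV7-4–TRAJ24 barcodes belong to that group was not examined.

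Zbtb16 was also found in barcodes with the invariant natural killer T cell chain that was left out, with 4 of 9 in Control 11, 2 of 4 in Control 25, 5 of 18 in IFNa 18, 3 of 18 in IFNa 23 and 26 of 48 in the combination. Among the barcodes with other chains, most of those with a Zbtb16 UMI carried no TRAV1–TRAJ33 chain. Those with a Zbtb16 UMI numbered 12, 1, 9, 31 and 38 in the same order of livers. Of these, 3, 0, 0, 2 and 5 carried TRAV1–TRAJ33.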
